A study of Rattus norvegicus with 244 samples.

Results

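Neurotrophic factors and their receptors were followed in the raphe and the somatomotor cortex of the rat after a spinal cord operation. The 9 genes were 6 factors, Bdnf, Ntf3, Cntf, Gdnf, Fgf2 and Hbegf, and 3 receptors, Ntrk2, Ntrk3 and Ngfr, of 10969 genes named on the arrays. Every probe set annotated to one of these symbols was taken, which gave 23 of 26202 probe sets, and the brightest probe set by mean signal represented its gene. The remaining probe sets of a gene served as a check.

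Neurotrophins are secreted proteins that keep neurons alive and shape their axons and synapses. BDNF, the product of Bdnf, binds the receptor tyrosine kinase TrkB, the product of Ntrk2, and neurotrophin-3, the product of Ntf3, binds TrkC, the product of Ntrk3, while the p75 receptor encoded by Ngfr binds all neurotrophins. CNTF, GDNF, FGF2 and HB-EGF belong to other growth factor families that signal through receptors of their own, and all are known to act on neurons or glia after injury.

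The study compared naive rats, rats with a laminectomy alone, called sham here, and rats with a moderate spinal cord injury, sampled 4 h and 24 h, then 7 d, 14 d and 28 d, and last 3 months after surgery. Both regions had 4 naive samples and, at every time, 4 injured and 2 sham samples. Exceptions were Ntrk2 and Hbegf, which were read on other array types than the remaining genes. For Hbegf 3 naive raphe samples were measured, and for the genes other than these 2 the raphe sham group at 3 months held 1 sample. Sham samples without an injured group of the same time were 1 raphe and 2 cortex samples at 30 min and 1 cortex sample at 72 h. Their groups entered no comparison. They counted in the levels, in the filter on low values and, as groups of their own, in the fit with its shared spread. The labels call the naive and sham brainstem tissue Raphe Magno and the injured tissue Raphe, so the dissection label and the injury cannot be told apart in the raphe. The labels do not give strain, sex or age, and they do not say that samples come from separate animals, so p-values measure the spread between these samples, which may be technical. Each sample is bulk tissue, in which fewer cells of a type and less RNA per cell cannot be told apart.

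The series held 244 arrays of 3 types from 84 tissue samples, with array medians of signal between 186.0 and 412.2. A score that placed naive cortex near 0 and naive raphe near 1 separated 39 raphe samples (0.879 to 1.12) from 40 cortex samples (-0.0498 to 0.104). The other 5 samples stood apart. Against their labels, replicate 1 of the raphe sham group at 3 months had a score of 0.0147, and replicate 1 of the cortex sham group at 3 months 0.562. Injured raphe at 4 h, replicate 1, had an actin 3′ to 5′ signal ratio of 56.2, where other raphe samples reached at most 2.6. Sham cortex at 14 d, replicate 2, and injured cortex at 7 d, replicate 2, had a 5th percentile of signal of 56.0 and 32.4, against at most 19.7 in other cortex samples. Results that rest on these samples are given with and without them.

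The brightest probe set of all 9 genes exceeded background in most samples of both regions. Background was the 90th percentile of 19 negative control probe sets on the same array, which had a median of 57.84 on type A, 76.84 on type B and 78.53 on type C. Gdnf, which encodes a survival factor for dopamine and motor neurons, was nearest to it: its signal was 94.4 in the median raphe sample (30.4 to 409.2) and exceeded the controls in 31 of 40 raphe samples, and in cortex it was 99.8 (23.8 to 623.7) and exceeded them in 27 of 43. Hbegf exceeded them in 38 of 39 raphe and 38 of 41 cortex samples. Among the other probe sets, the weaker ones of Ntf3 and Ntrk3 and the weakest of Hbegf exceeded the controls in 9 to 12 of 43 cortex and 10 to 11 of 40 raphe samples, and the weakest of Bdnf in 12 of 40 raphe samples.

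The ligand genes had these levels. Bdnf (probe set S76799_at) had a median signal of 304.3 in raphe (134.2 to 682.3) and 311.4 in cortex (130.6 to 574.1). Ntf3 (M34643_at) had 439.2 (247.8 to 951) and 563.7 (331.4 to 1317), and Cntf (rc_AA892559_at) had 244.7 (107.2 to 324.3) and 177.5 (16.3 to 321.8). Fgf2 (M22427_at) had 212.6 (48.6 to 733.2) and 230.2 (52.7 to 543.9), and Hbegf (rc_AA818658_at) had 191.9 (20.1 to 274.1) and 182.8 (70.3 to 338.5). The receptor genes Ntrk2 (rc_AA943830_at), Ntrk3 (S60953_s_at) and Ngfr (U25650_f_at) had medians of 5386 (450.9 to 6972), 253.3 (89.2 to 1317) and 2212 (993.3 to 4014) in raphe. In cortex the same receptor probe sets read 4130 (2623 to 6069), 320.3 (86.9 to 1011) and 2052 (457.8 to 4299). The letters s and f before the ending of a name mark probe sets whose probes can match related transcripts. Probe sets differ in how well they bind, so no level of a gene was set against that of another.

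**Figure D1:**
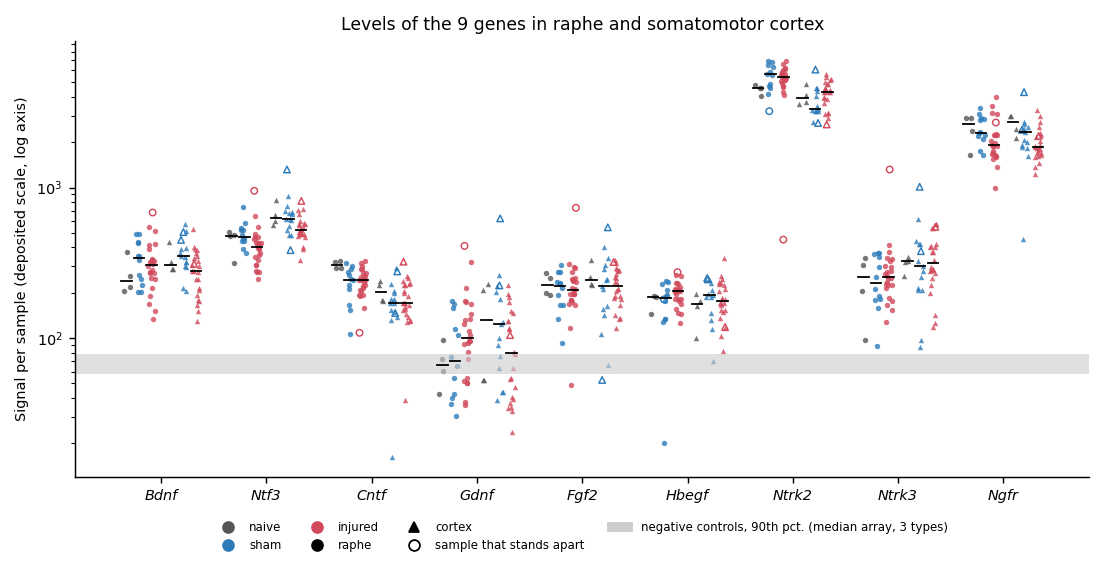
Signal of the brightest probe set of each gene in every sample (log axis), with raphe as circles, cortex as triangles, colour for the treatment, black bars for medians, and open symbols for the 5 samples that stand apart. The grey band spans the median 90th percentile of the negative controls on the 3 array types, 57.84 to 78.53; Gdnf samples lie on both sides of it, and the lowest Ntrk2 and highest Ntrk3 raphe values, 450.9 and 1317, belong to the same sample.

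The first question was whether injury moved these genes beyond the sham operation. Differences are in log2(signal + 32) and were tested with limma, with Benjamini-Hochberg adjusted p over all probe sets tested, a threshold of 0.05 and a spread shared by all groups of a region. Of 108 tests of a gene at a time (9 genes, 6 times, both regions), 2 passed, both upward: Hbegf in raphe at 4 h and Fgf2 in cortex at 3 months. At an unadjusted p under 0.05 there were 17. By time, 4.36% to 13.7% of all probe sets in raphe and 3.18% to 18.9% in cortex had one. Of all 18683 probe sets tested in raphe, 0.15% passed at 4 h, 0.00535% at 24 h, 0.798% at 7 d, 0.0375% at 14 d, 0% at 28 d and 0.616% at 3 months. Of the 18733 in cortex, 0.016%, 0.0427%, 0.368%, 1.83%, 0% and 2.46% passed at the same times. Each of the calls rested on a pair of sham samples of which 1 was the lowest sample of its region.

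Hbegf encodes a membrane-anchored growth factor of the EGF family, released by proteases and known as an early response gene in wounded tissue. In raphe at 4 h its signal was 274.1, 257.5, 181.3 and 208.5 in the injured samples, and 20.1 and 133.1 in the sham samples. The naive samples read 145.4, 186.2 and 189.5. All 4 injured samples were above both sham samples, but the lower 2 injured samples were within or near the naive range. The highest injured value, 274.1, came from the sample with the actin ratio of 56.2, and the sham sample at 20.1 lay below the negative controls. The injured minus sham difference was 1.49 ± 0.283 (log2 ± SE, n = 4 and 2, limma adjusted p = 0.0295), where 0.15% of all 18683 probe sets tested passed. Without the 5 samples that stand apart it was 1.41 (limma adjusted p = 0.0298), where 0.612% passed. With a larger added constant the difference was 0.86 (limma adjusted p = 0.0542). Without sham replicate 1 it was 0.65 (limma adjusted p = 0.50), and without sham replicate 2 it was 2.32 (limma adjusted p = 7.86e-05).

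The next brightest Hbegf probe set did not follow. It read 229.7, 27.5, 163.5 and 206.6 in the injured and 177.0 and 122.7 in the sham samples, so the groups overlapped, and its difference was -0.13 (limma adjusted p = 0.921). In cortex at 4 h the brightest Hbegf probe set read 135.8, 153.5, 183.6 and 166.1 in injured samples and 70.3 and 115.4 in sham samples, neither of which exceeded the negative controls. The groups did not overlap, and the difference of 0.64 ± 0.278 missed the threshold (limma adjusted p = 0.555). At 7 d it was -0.62 ± 0.278 (limma adjusted p = 0.446), the other direction. In cortex Hbegf did not pass the filter on low values once the samples that stand apart were left out. At 24 h and later the raphe differences of Hbegf ran from -0.16 to 0.24, and their mean with that at 4 h was 0.27 ± 0.116 (limma adjusted p = 0.252). Of the marker lists for glia, immune cells, neurons, blood, vessels, meninges and choroid plexus, 0 genes passed in raphe at 4 h by limma. At most 2 of a list had an unadjusted p under 0.05, as did 13.7% of all probe sets. The summed signal of the choroid plexus markers ran from 825.8 to 28410 in the 2 sham and from 4436 to 26070 in the 4 injured samples, and its part in the result was not tested.

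Fgf2 encodes basic fibroblast growth factor, made mainly by astrocytes in the adult brain. In cortex at 3 months it read 330.2, 283.0, 235.7 and 314.8 in the injured samples, and 52.7 and 143.1 in the sham samples. The naive samples read 254.5, 330.8, 224.5 and 230.2. All injured samples were above both sham samples and within the naive range, and both sham samples were below every naive sample. The injured minus sham difference of Fgf2 was 1.40 ± 0.36 (limma adjusted p = 0.0346), where 2.46% of all 18733 probe sets tested passed. The sham sample at 52.7 is the library whose region score went against its label: without it the difference was 0.87 (limma adjusted p = 0.727), and without all 5 samples that stand apart it was 0.87 as well (limma adjusted p = 0.582). Without sham replicate 2 it was 1.92 (limma adjusted p = 0.00514), and without injured replicate 1, 2 or 4 it missed the threshold (limma adjusted p = 0.0712, 0.0526 and 0.0671). It also missed it under quantile normalization, at 1.17 (limma adjusted p = 0.0521), and with array quality weights, at 1.42 (limma adjusted p = 0.118).

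At 14 d the Fgf2 difference had the other direction. Injured cortex samples read 213.2, 251.3, 181.9 and 116.2 and sham samples 222.4 and 543.9, which overlapped. The difference was -0.82 ± 0.36 (limma adjusted p = 0.21), and -0.23 without the samples that stand apart, of which the sham sample at 543.9 is 1. At 28 d the cortex sham samples also had low Fgf2, 156.5 and 66.1, against 143.2, 136.0, 166.5 and 212.0 in injured samples, which overlapped them. The next brightest Fgf2 probe set gave 0.65 at 3 months (limma adjusted p = 0.404). With all samples, cell markers moved with the comparison at 3 months. Lower in injured samples were 3 of 7 oligodendrocyte genes (Mobp -0.99, Mag -1.03, Cnp -0.95) and 2 of 7 neuron genes (Nefl -1.29, Nefh -1.69). So was 1 of 3 Schwann cell and peripheral nerve genes (Prph -1.82), while 1 of 8 forebrain cortex genes was higher (Arpp21 1.66). These differences include the sham library whose region score went against its label. Whether they remain without that library is not shown here, so they cannot be credited to injury. The summed forebrain signal was 18710 and 68070 in the sham and 52010 to 63470 in the injured samples. The part of these markers in the Fgf2 difference was not tested.

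**Figure D2:**
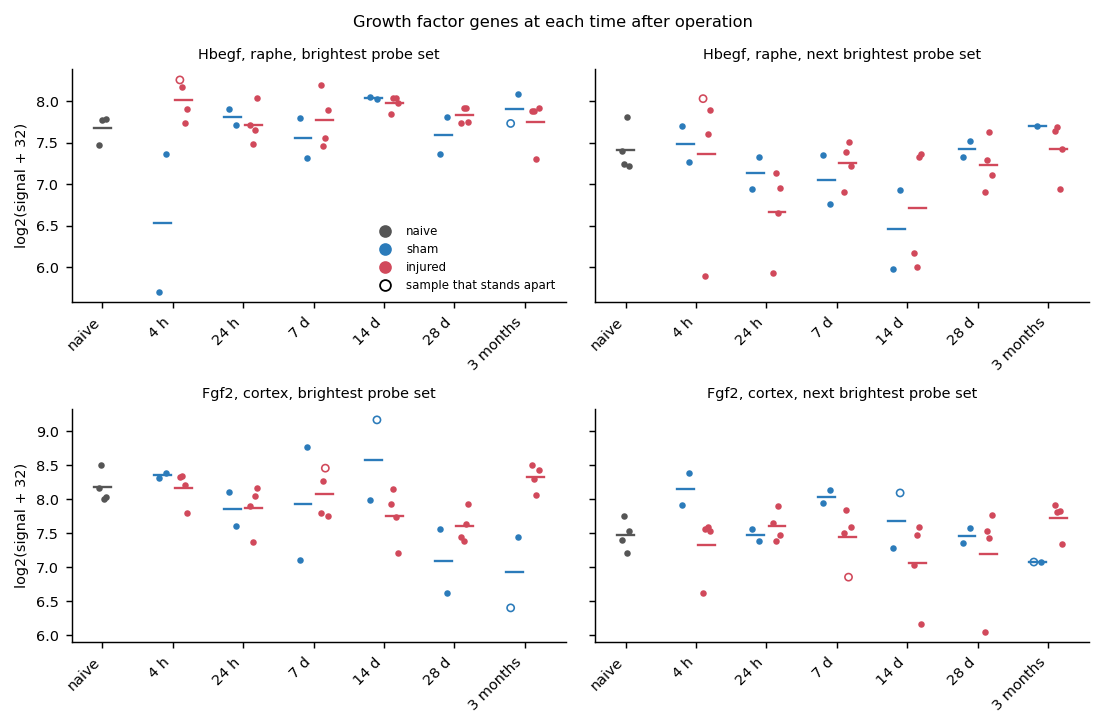
Signal as log2(signal + 32) of Hbegf in raphe (upper panels) and Fgf2 in cortex (lower panels) by time, for the brightest and the next brightest probe set; points are samples, bars are group means, and open circles are samples that stand apart. The Hbegf sham sample at 20.1 sits alone at 4 h, and the next brightest probe set shows no such gap.

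Of the neurotrophin ligands Ntf3 and Bdnf, 0 passed between injured and sham samples by limma, at any time or over the 6 times. An unadjusted p under 0.05 was reached by Ntf3 in both regions over the 6 times and in cortex at 14 d, and by Bdnf in cortex over the 6 times. Ntf3, known to support proprioceptive sensory neurons, had a difference below 0 at 5 of 6 times in raphe and at 5 of 6 in cortex. Its mean difference over the 6 times was -0.31 ± 0.139 in raphe (limma adjusted p = 0.288) and -0.28 ± 0.101 in cortex (limma adjusted p = 0.273). Without the 5 samples that stand apart the raphe value passed, at -0.37 (limma adjusted p = 0.036), as 1 of 9 genes, where 4.73% of all probe sets passed; the cortex value was -0.25 (limma adjusted p = 0.382). The raphe values behind this at 4 h were 951, 280.3, 306.7 and 327.9 in injured and 461.2 and 523.5 in sham samples. The value of 951 came from the sample with the actin ratio of 56.2, and the other 3 injured samples lay below both sham samples. At 7 d the injured samples, 272.9 to 405.5, also lay below both sham samples, 584.5 and 522.3, with a difference of -0.60 ± 0.323 (limma adjusted p = 0.459).

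In cortex the largest Ntf3 difference was at 14 d, where injured samples read 569.0, 480.0, 527.9 and 402.1 and sham samples 620.6 and 1317. The groups did not overlap, and the difference was -0.84 ± 0.248 (limma adjusted p = 0.0649), where 1.83% of all probe sets passed. The sham sample at 1317 is 1 of the 5 that stand apart, and without them the difference was -0.32 (limma adjusted p = 0.996). Without the sham sample at 620.6, which leaves that at 1317, it was -1.37 at 14 d (limma adjusted p = 0.00108) and -0.37 over the 6 times (limma adjusted p = 0.0282). Bdnf, the activity-dependent neurotrophin, gave -0.14 ± 0.165 over the 6 times in raphe (limma adjusted p = 0.751) and -0.36 ± 0.159 in cortex (limma adjusted p = 0.381). Its raphe difference ran from -0.63 at 28 d to 0.31 at 24 h, and its cortex difference from -0.66 at 3 months to 0.13 at 24 h.

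Gdnf gave the widest range of differences, near the detection limit. In cortex at 14 d its signal was 80.8, 34.46, 34.98 and 32.9 in injured and 128.7 and 623.7 in sham samples. The groups did not overlap, and the difference was -2.10 ± 0.589 (limma adjusted p = 0.0542). The sham sample at 623.7 is the same library that gave the high Ntf3 value, and without the samples that stand apart the difference was -1.09 (limma adjusted p = 0.996). Without the sham sample at 128.7 it was -3.12 (limma adjusted p = 0.00255). Over the 6 times Gdnf gave 0.38 ± 0.24 in raphe and -0.56 ± 0.24 in cortex, and the difference between the regions, 0.94 ± 0.348, did not pass (limma adjusted p = 0.422). For that difference 0 of 9 genes passed, where 0.0206% of all 19430 probe sets passed. Gdnf alone had an unadjusted p under 0.05, as did 8.49% of all probe sets. Cntf, a cytokine stored in astrocytes and Schwann cells, gave 0.12 ± 0.109 in raphe and -0.03 ± 0.15 in cortex (limma adjusted p = 0.662 and 0.967). In raphe at 28 d Cntf read 243.8, 223.3, 289.6 and 234.5 in injured and 211.8 and 107.2 in sham samples, and at 3 months 242.5, 301.7, 242.0 and 288.4 in injured and 154.7 in the single sham sample. At both times all injured samples were above the sham samples, with differences of 0.60 ± 0.253 and 0.68 ± 0.327 that did not pass (limma adjusted p = 0.649 and 0.452).

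The receptor genes passed in 0 comparisons of injured with sham samples by limma. Ngfr, which encodes the p75 receptor known to reappear on injured neurons and glia, had its largest raphe difference at 7 d, with 1610, 1749, 1929 and 1876 in injured and 2893 and 2807 in sham samples. All injured samples were below both sham samples, with a difference of -0.66 ± 0.274 (limma adjusted p = 0.279). Over the 6 times it was -0.29 ± 0.118 (limma adjusted p = 0.218), and -0.32 without the 5 samples (limma adjusted p = 0.0831). The next brightest Ngfr probe set gave -0.305 ± 0.0825 without them (limma adjusted p = 0.0313). In cortex at 7 d Ngfr gave 0.98 ± 0.329 (limma adjusted p = 0.227), where a sham sample at 457.8 lay far below the other at 1871 and below the injured samples at 1374 to 2508. Without the sham sample at 457.8 the difference was -8.8e-05, and without that at 1871 it was 1.96 (limma adjusted p = 0.00125).

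The differences of Ntrk2 and Ntrk3 in cortex lay above 0 at some times and below 0 at others, and none passed. At 4 h Ntrk2 read 3868, 4293, 4838 and 4435 in injured and 3199 and 2711 in sham samples, a difference of 0.56 ± 0.234 (limma adjusted p = 0.542). Ntrk3 read 535.6, 298.7, 404.0 and 372.5 in injured and 208.7 and 96.6 in sham samples, a difference of 1.28 ± 0.463 (limma adjusted p = 0.46). In both genes the groups did not overlap, and the sham samples at 4 h were the lowest group of the region by mean. Ntrk2 gave 0.55 ± 0.234 at 24 h (limma adjusted p = 0.636) and -0.58 ± 0.234 at 3 months (limma adjusted p = 0.171). Ntrk3 gave 1.15 ± 0.463 at 7 d (limma adjusted p = 0.364) and -1.18 ± 0.463 at 14 d (limma adjusted p = 0.165). The differences at 3 months for Ntrk2 and at 14 d for Ntrk3 were -0.19 and -0.36 without the samples that stand apart. In raphe at 4 h Ntrk2 gave -0.89 ± 0.487 (limma adjusted p = 0.42), which came from the sample with the actin ratio of 56.2: it read 450.9, the others 4623 to 5611 and the sham samples 5623 and 4865. Without the samples that stand apart the difference was -0.03.

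Taken over the 6 times, 0 of 9 genes passed in raphe, where 0.985% of all probe sets passed, and 0 of 9 in cortex, where 0.133% passed. At an unadjusted p under 0.05 there were 3 in each region by limma: Ntf3 and Ngfr lower and Hbegf higher in raphe, and Gdnf, Ntf3 and Bdnf lower in cortex. Of all probe sets, 15.1% in raphe and 11.4% in cortex reached that level.

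**Figure D3:**
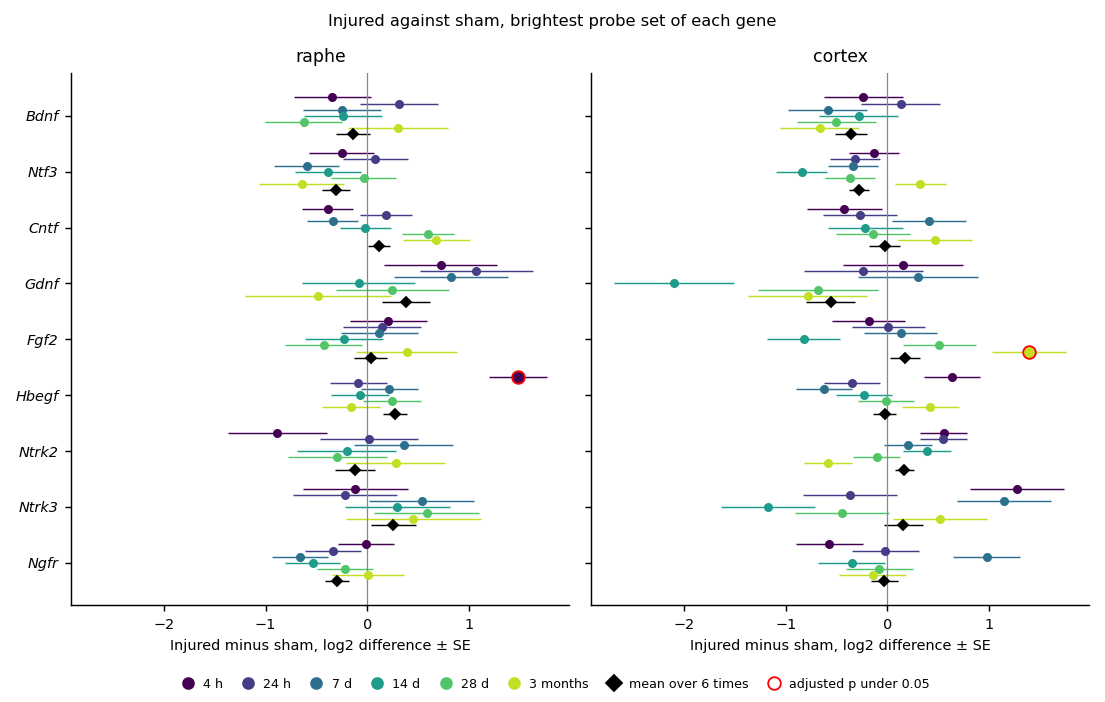
Injured minus sham difference in log2(signal + 32), with its SE, for the brightest probe set of each gene at each time (colour) and as the mean over the 6 times (black diamonds), in raphe (left) and cortex (right). Red outlines mark the 2 differences past the threshold, Hbegf at 1.49 in raphe at 4 h and Fgf2 at 1.40 in cortex at 3 months; the lowest point is Gdnf at -2.10 in cortex at 14 d.

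The naive samples gave a second reference. Against naive, 0 of 9 genes passed by limma in injured raphe (3.06% of all probe sets passed), in injured cortex (2%) and in sham cortex (0.491%). At an unadjusted p under 0.05 there were 1, 1 and 0, where 17%, 16.9% and 13.8% of all probe sets had one. In sham raphe 0 passed (1.35% of all), with 1, Cntf, at an unadjusted p under 0.05 (14.6% of all). Cntf read 292.3, 324.3, 319.1 and 292.5 in naive raphe, the highest group of the region by mean, and sham raphe samples ran from 107.2 to 301.4 over the 6 times. The difference was -0.47 ± 0.172 (limma adjusted p = 0.167), and it passed without the 5 samples that stand apart (limma adjusted p = 0.0479), where 6.13% of all probe sets passed. Markers moved with it: 3 of 3 blood genes (Hba-a1 -0.88, Hbb -0.77, Alas2 -0.70) and 1 of 2 Schwann cell genes tested (Prx -1.11) were lower in sham raphe, and 0 of 7 astrocyte genes passed by limma, with 1 at an unadjusted p under 0.05. The summed blood signal was 99960 to 120300 in naive and 32400 to 96160 in sham samples, and the part of these markers in the Cntf difference was not tested. The injured raphe samples against naive gave -0.36 ± 0.158 (limma adjusted p = 0.232), a comparison that shares the naive samples.

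The next question was whether the genes changed over time within the injured samples. By limma F test 0 of 9 genes passed in raphe (0.487% of all probe sets passed). There 1, Ngfr, had an unadjusted p under 0.05, as did 18.3% of all probe sets. In cortex 0 passed (1.1% of all), with 2, Ntrk2 and Hbegf, at an unadjusted p under 0.05 (15.5% of all). Without the samples that stand apart Ngfr passed in raphe (F = 6.98, limma adjusted p = 0.0164, where 4.4% passed) and Ntrk2 in cortex (F = 8.87, limma adjusted p = 0.00865, where 2.19% passed). With all samples their values were F = 5.56 (limma adjusted p = 0.0814) and F = 2.91 (limma adjusted p = 0.262).

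Ngfr in injured raphe read 3062, 4014, 3459 and 3142 at 3 months, and from 993.3 to 2702 at the earlier times. All 4 late samples were above every earlier injured sample. The sham sample at 3 months read 3389 and lay among them, and earlier sham samples ran up to 3084, above the lowest of them. The next brightest Ngfr probe set read 894.8, 1134, 878.1 and 934.1 at 3 months, within the range of 551.4 to 1799 at earlier times. Ntrk2 in injured cortex read 3138, 3076, 2881 and 3138 at 3 months, against 5662, 5042, 4553 and 3969 at 24 h. Apart from injured replicate 2 at 7 d, at 2623, every earlier injured sample was above the samples at 3 months. The 2 sham samples at 3 months read 6069 and 3486, the first from the library whose region score went against its label. The next brightest Ntrk2 probe set read 2989, 3377, 3410 and 3307 at 3 months and 4116, 3743, 3831 and 3060 at 24 h, which overlapped.

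**Figure D4:**
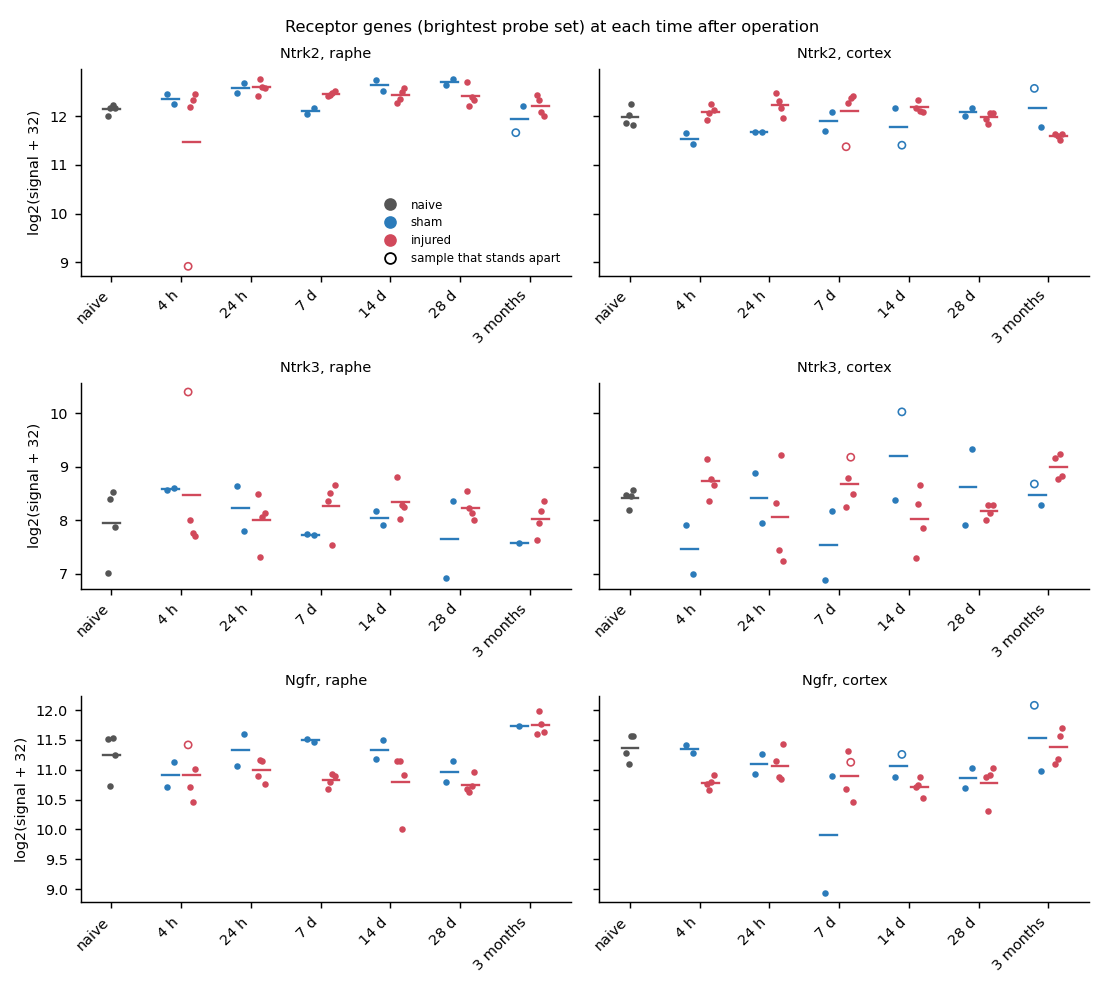
Signal as log2(signal + 32) of the brightest probe sets of Ntrk2, Ntrk3 and Ngfr by time in raphe (left) and cortex (right); points are samples, bars are group means, and open circles are samples that stand apart. Ngfr in raphe is highest at 3 months in injured (3062 to 4014) and sham (3389) samples alike, and Ntrk2 in cortex is low in injured samples at 3 months (2881 to 3138).

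Bdnf behaved differently by probe set in the cortex. Its next brightest probe set, D10938exon_s_at, passed the F test over time in injured cortex (F = 7.39, limma adjusted p = 0.0219), while the brightest gave F = 0.35 (limma adjusted p = 0.947). At 4 h the injured samples read 94.1, 155.3, 97.7 and 131.0, and at the later times injured samples ran from 144.8 to 407.8. At 4 h 3 of 4 samples were below every later injured sample, and the fourth overlapped only the lowest at 28 d. Sham cortex read 254.3 and 166.9 at 4 h and 410.8 and 636.7 at 24 h, and naive cortex 282.8, 236.6, 210.5 and 302.4. The injured samples at 4 h were below both sham samples and all naive samples, yet against sham the difference of -0.68 ± 0.278 did not pass (limma adjusted p = 0.518), nor did that at 24 h, -0.88 ± 0.278 (limma adjusted p = 0.365). For injured cortex at 24 h, the descriptions of some type A arrays gave another time than the titles. This probe set is on type A, and its F test was not repeated without those arrays. Which Bdnf transcripts a probe set reads was not stated in these sources.

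Some genes induced by neuronal activity and by neurotrophins also changed over time in the injured cortex. Of 81 genes of the pathway lists tested, 7 passed the F test over time by limma, where 1.1% of all probe sets passed, and 9 without the samples that stand apart, where 2.19% passed. Of the 15 activity-induced genes 5 passed and 10 did not. Those that passed were Egr2 (F = 12.3, adjusted p = 0.000892), Egr1 (F = 9.24), Nr4a3 (F = 8.39), Arc (F = 7.19) and Junb (F = 6.78). The other 2 of the 7 were Dusp6 (F = 6.85), a phosphatase that switches off ERK, and the interleukin-6 receptor gene Il6r (F = 9.01). At 4 h the injured samples read 5444 to 7215 for Egr1, 2200 to 2973 for Arc, 262.6 to 336.9 for Nr4a3, 828.1 to 1005 for Junb and 405.8 to 756.8 for Dusp6, and each of these was the lowest injured group by mean. The sham samples at 4 h overlapped them for Egr1 (4875 to 9156), Nr4a3 (280.7 to 320.9) and Dusp6 (657.4 to 1035). For Arc they lay above all injured samples (3001 to 4168), without overlap. The sham values of Junb and the values of Egr2 are not listed here. Il6r was high at 4 h in injured (516.3 to 740.1) and sham samples (513.1 to 612.2). None of the 81 genes passed between injured and sham cortex at 4 h by limma, where 0.016% of all probe sets passed. Of the 81, 11 had an unadjusted p under 0.05, where 7.9% of all probe sets had one. The F tests of these genes were also not repeated without the arrays whose labels conflict.

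For the time course of the injured minus sham difference, 0 of 9 genes passed in raphe (0% of all probe sets) and 0 of 9 in cortex (0.966% of all) by limma. At an unadjusted p under 0.05 there were 2 and 5, where 10.5% and 17.8% of all probe sets had one. The smallest adjusted p in cortex were those of Ntrk3 (F = 4.46, limma adjusted p = 0.107) and Fgf2 (F = 4.25, limma adjusted p = 0.119). Of 81 related genes the receptor genes Gfra2 (F = 7.07) and Erbb2 (F = 6.53) passed in cortex, and neither did by limma without the samples that stand apart, where 0.168% of all probe sets passed.

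The regions themselves were compared next. Between naive raphe and naive cortex 0 of 9 genes passed by limma, where 14.3% of all 19430 probe sets passed. Of the 9 genes 1, Ntf3, had an unadjusted p under 0.05, as did 25.5% of all probe sets. Ntf3 read 477.7, 316.9, 509.6 and 481.8 in naive raphe and 656.1, 821.9, 602.3 and 562.0 in naive cortex. The groups did not overlap, and the difference of -0.54 ± 0.235 (limma adjusted p = 0.124) passed without the samples that stand apart, none of which is naive (limma adjusted p = 0.0254, where 20.5% passed). Over the naive, 6 sham and 6 injured groups together, a comparison added after seeing the data, 3 of 9 genes passed, where 53.1% of all probe sets passed, so their share was below that of all probe sets. Ntrk2 was higher in raphe by 0.36 ± 0.106 (limma adjusted p = 0.0032), Cntf was higher by 0.29 ± 0.0898 (limma adjusted p = 0.00485), and Ntf3 differed by -0.38 ± 0.0807 (limma adjusted p = 4.7e-05). Without the samples that stand apart these genes still passed, and Ngfr, which missed the threshold with all samples, passed as well. Median signal was then 5448 in raphe and 4206 in cortex for Ntrk2, and 245.6 and 174.9 for Cntf. For Ntf3 it was 437.5 and 562.9, and for Ngfr 2201 and 1950.

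The Ntrk2 probe sets went opposite ways between the regions. The brightest had medians of 5386 in raphe and 4130 in cortex. The next brightest, M55291_at, had 1706 in raphe (341.9 to 2355) and 3542 in cortex (2214 to 5016), with a difference of -1.13 ± 0.0904 (limma adjusted p = 7.11e-17), and the weakest, M55293_at, gave -0.81 ± 0.129 (limma adjusted p = 2.25e-07). In naive samples M55291_at read 1752, 1781, 1700 and 1953 in raphe and 3423, 2915, 3409 and 2850 in cortex, which did not overlap, and passed at -0.80 ± 0.263 (limma adjusted p = 0.030). Ntrk2 is known to give full-length receptors and truncated ones that lack the kinase. Which of these a probe set reads was not stated in these sources.

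Other genes also differed by probe set between the regions. The brightest Bdnf probe set gave 0.01, while D10938exon_s_at gave -0.43 (limma adjusted p = 1.72e-05) and rc_AI030286_s_at gave -0.76 (limma adjusted p = 7e-09). For Ngfr, with all samples, the brightest gave 0.17 ± 0.0857 (limma adjusted p = 0.0868) and the next 0.35 (limma adjusted p = 0.00242). For Fgf2 the brightest gave 0.03 and the next -0.27 (limma adjusted p = 0.0412). Ntrk3 gave -0.29 ± 0.14 (limma adjusted p = 0.0808), and Gdnf and Hbegf gave -0.21 and 0.00. Cntf and Gdnf had 1 probe set each.

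**Figure D5:**
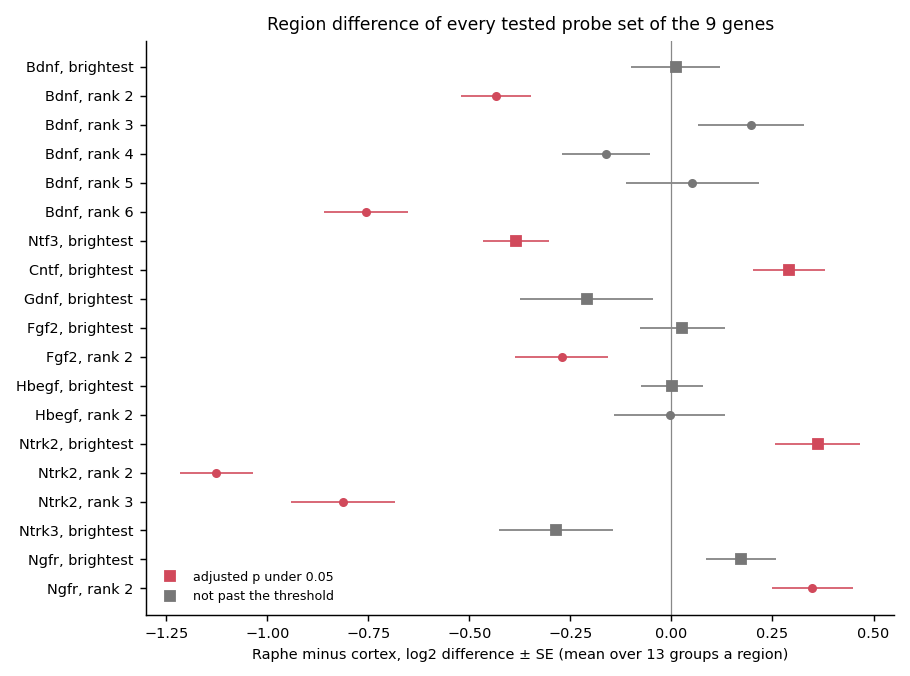
Raphe minus cortex difference in log2(signal + 32), with its SE, for each tested probe set of the 9 genes, as the mean over 13 groups a region; squares are the brightest probe sets, circles the others in order of signal, and red marks an adjusted p under 0.05. The Ntrk2 probe sets lie on both sides of 0, at 0.36, -1.13 and -0.81.

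The 93 related genes on the arrays were ligands of the same families, receptors, adaptors, proteases and kinases, and activity-induced genes. Few of them, as few of all probe sets, passed between injured and sham samples. Over the 6 times 0 of 79 passed in raphe (0.985% of all probe sets) and 0 of 81 in cortex (0.133%) by limma. At an unadjusted p under 0.05 there were 12 and 9, where 15.1% and 11.4% of all probe sets had one. Their median difference was -0.0041 in raphe, where all genes had -0.0044, and -0.013 in cortex, where all genes had 0.0042. Without the samples that stand apart 3 of 77 passed in raphe, which is 3.90% of them and below the 4.73% of all probe sets: the immediate early gene Junb at 0.41, and Lingo1, a partner of the p75 receptor in a complex that limits axon growth, at -0.36, and the adaptor gene Shc3 at -0.32.

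At single times the receptor gene Gfra2, whose product binds neurturin, was higher in injured cortex at 7 d by 1.11 ± 0.182 (limma adjusted p = 0.00326), where 0.368% of all probe sets passed. Its signal was 1052 to 1410 in the 4 injured and 433.9 to 670.7 in the 2 sham samples, which did not overlap. At the same time 1 of 8 microglia and macrophage markers tested, Aif1, was higher, by 2.79; the summed signal of that list was 6804 to 9300 in injured and 7275 to 8657 in sham samples, and its part in the Gfra2 difference was not tested. In cortex at 14 d 1 of 81 related genes was lower and 1 higher, where 1.83% of all probe sets passed. Erbb2, a co-receptor of neuregulin receptors, gave -1.94 and Lingo1 gave 1.43, and neither passed without the samples that stand apart. In cortex at 3 months 3 of 81 were higher, where 2.46% of all probe sets passed. They were the ligand gene Hgf (1.45) and the activity-induced genes Homer1 (1.64) and Nr4a3 (1.06). Of these Hgf passed without those samples (2.07). In raphe, where 0.798% of all probe sets passed at 7 d and 0.616% at 3 months, 1 of 79 related genes passed at each time. Junb was higher at 7 d by 1.46. Of the markers on the arrays, 1 of 7 oligodendrocyte genes, Mbp (-0.91), and 1 of 3 blood genes, Hba-a1 (-1.13), were lower at 7 d. Lingo1 at 3 months gave -1.45, which did not pass without those samples. Against naive cortex 2 of 81 related genes were higher and 1 lower in injured samples, where 2% of all probe sets passed. In sham samples 1 of 81 was higher, where 0.491% of all passed. Spry1, an inhibitor of growth factor signalling, was higher in injured (1.12) and in sham samples (1.16), which share the naive samples. The second of these did not pass without the samples that stand apart. Of 7 astrocyte genes on the arrays 1, Glul, was lower in both injured and sham cortex (-0.61 and -0.62). Of 9 microglia and macrophage markers on the arrays 1, Aif1, was lower in sham than in naive cortex (-0.87). Plat, which encodes tissue plasminogen activator, was higher in injured than in naive cortex (0.80) and Fgfr2, a receptor for FGFs, lower (-0.52). Against naive raphe, 1 of 79 related genes, the adaptor gene Shc3, was higher in sham samples (0.59), where 1.35% of all probe sets passed. In injured samples 0 of 79 passed, where 3.06% of all probe sets did. The latter count depended on the samples that stand apart. Without them 10 of 77 were higher and 2 lower in injured than in naive raphe by limma, where 11.3% of all probe sets passed.

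Between the naive regions 24 of 84 related genes passed, 7 higher and 17 lower in raphe, where 14.3% of all probe sets passed; their median was -0.17 and that of all genes 0.037. Without the samples that stand apart, none of which is naive, 15 of 83 were higher and 20 lower, where 20.5% of all passed. Over the 13 groups a region 23 of 84 were higher and 33 lower, where 53.1% of all passed. The 10 of 15 activity-induced genes that passed were all lower in raphe, among them Homer1 (-3.41), Egr1 (-3.0), Nr4a1 (-2.71), Junb (-2.25), Nr4a3 (-2.02) and Arc (-2.02), as was the receptor gene Gfra2 (-1.21). Higher in raphe were the ligand genes Fgf9 (1.03) and Nrg1 (1.28) and the receptor genes Sdc3 (0.85), Gfra1 (0.76) and Il6st (0.52), the last of which encodes the shared signalling chain of CNTF receptors.

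Each gene was also set beside the genes of the same array type whose values ran most like it over the samples of a region. The points of such a correlation share arrays, scaling and background, and the values are descriptions. Without the samples that stand apart, Ntf3 in cortex ran closest to Cst8 (r = 0.823 over 37 samples), Ngfr in raphe to Akr1b1 (r = 0.801 over 38) and in cortex to Csf3 (r = 0.794), and Cntf in cortex to Pou3f2 (r = 0.753) and the next brightest probe set of Bdnf (r = 0.708). Ntrk2 ran closest to Rnase4 in raphe (r = 0.740) and to Sec63 in cortex (r = 0.729). For the other genes the closest r was between 0.547 and 0.774.

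Group means were also ranked. In raphe the gap between the highest and the lowest of 13 group means, without the samples that stand apart, was smallest for Ntrk2 at 0.60, with an SD within groups of 0.144, and largest for Hbegf at 1.55, with 0.33. That Hbegf gap lay between the single sham sample at 3 months (239.7) and the 2 sham samples at 4 h (20.1 and 133.1). The sample at 20.1 was below the negative controls. In cortex it ran from 0.79 for Ntf3, with an SD within groups of 0.231, to 1.54 for Ntrk3, with 0.539. The highest groups were sham samples at 28 d for Bdnf (488.5 to 489.8), Fgf2 (274.1 to 304.9) and Ntrk2 (6330 to 6972) in raphe, and injured samples at 3 months for Hbegf (227.1 to 338.5), Ngfr (2169 to 3281) and Ntrk3 (405.3 to 575.0) in cortex. Groups next to each other in these orders were not tested against each other.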

How the data were processed

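RNA of rat raphe and somatomotor cortex was measured on 3 Affymetrix array types. The deposited values are intensity values, linear and above 0 for each probe set, that the authors had scaled per array; the software was not given in the sources used here. After leaving off 2 percent at each end, mean signal was 800.5 to 801.3 on every array, so this scaling was kept. Then 32 was added and the log2 taken, which draws differences of dim probe sets towards 0. The number of arrays limits the precision.

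Groups came from titles, also where a description gave another time. This held for 2 injured cortex replicates at 24 h on type A, described as 4 h, and for the raphe sham sample at 30 min. Of 26202 probe sets other than controls, 18178 carried a single gene symbol, 391 several and 7633 none, with symbols updated through Entrez identifiers to RefSeq names (GRCr8). Tests took probe sets above the 40th percentile of the array on 4 or more arrays.

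limma 3.58.1 (R 4.3.3, statmod 1.5.0) fitted the group means of each region, separately by array type, with two-sided moderated tests and Benjamini-Hochberg adjustment across the types. The 24 comparisons were injured against sham at each time and over the 6 times, injured and sham against naive, F tests of time courses, and the regions; that of the regions over 13 groups was added after seeing the data. The fit was also run on simulated data with known changes and independent noise. That simulation held no samples that stand apart, so it cannot speak to calls that rest on such samples. All 9 genes are named, and of related genes up to 6 a comparison with the smallest p past the threshold; Beyond that rule, Il6st, Nrg1, Fgf9, Sdc3, Gfra1 and Gfra2 between naive regions and Junb over the cortex time course are named, chosen after their values were seen. For likeness, the 3 genes with the highest Pearson r were computed per gene and region. The genes, gene lists and comparisons were chosen with earlier results of these data known.

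The alternatives tried were quantile normalization, filters at the 60th percentile or none, added constants of 1 and 128, and weights for array quality. Others were a block for replicate number, adjustment per array type, the next brightest probe set and other levels of the negative controls. Each sample was left out in turn, and for cortex at 24 h also the arrays whose labels conflict. Excluding the 5 samples that stand apart was added after seeing the data. These had a 5th percentile of signal 2 or more times their region's median, an actin ratio 4 or more times that median, or a region score against the label. Replicate numbers were not taken to pair samples, since the deviations of same-numbered injured and sham samples correlated over 0.1 in 1 of 22 pairs. The labels do not say whether raphe and cortex samples came from the same rats, and such correlations cannot decide it. The region comparisons took all samples as independent.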

Additional observations from a re-analysis of the deposited data

Results flagged for a closer look

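In 125 groups of 4 samples, 11 had a sample whose gap to the nearest other exceeded the 95% critical value of Dixon's test, which chance reaches in about 5 percent of groups. A single sample, injured raphe at 4 h, replicate 1, with the actin 3′ to 5′ ratio of 56.2, gave 5 of them. It was the highest of 4 for Fgf2 at 733.2 (others 195.7 to 247.2), Gdnf at 409.2 (80.7 to 93.4), Ntf3 at 951 (280.3 to 327.9) and Ntrk3 at 1317 (177.2 to 225.6), and the lowest for Ntrk2 at 450.9 (4623 to 5611).

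Injured cortex at 7 d, replicate 2, which has a raised 5th percentile of signal, was the lowest for Ntrk2 at 2623 (others 4894 to 5419). The other 5 came from samples that do not stand apart by quality. Gdnf in injured cortex at 14 d, replicate 1, was 80.8 (others 32.9 to 35). Hbegf in injured cortex at 3 months, replicate 3, was 338.5 (others 227.1 to 235.3), and in injured raphe at 3 months, replicate 3, it was 126.4 (others 203.2 to 210.8). Ntf3 in injured cortex at 28 d, replicate 2, was 331.4 (others 467 to 492.7), and in naive raphe, replicate 2, it was 316.9 (others 477.7 to 509.6).

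Among the samples that no comparison used, sham cortex at 30 min, replicate 2, had the highest Bdnf signal of the naive and sham cortex samples, 574.1, where the others ran from 205.9 to 514.9.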

How the results depend on the processing

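Counts are of the 9 genes past the threshold by limma. The raphe count over the 6 times was 0, with 2 under array quality weights (Ntf3 and Ngfr) and 1 without the 5 samples that stand apart. The count in raphe at 4 h was 1, and 0 under the 60th percentile filter, which left Hbegf untested, the larger added constant, the replicate block or the next brightest probe set. The count in cortex at 3 months was 1, and 0 under quantile normalization, the 60th percentile filter, array quality weights, the next brightest probe set or without the 5 samples. The count in cortex at 14 d was 0, and 1 under the 60th percentile filter or the larger added constant. The time course of injured samples went from 0 to 1 in raphe under array quality weights or without the 5 samples, and in cortex under these or the next brightest probe set. Sham against naive raphe went from 0 to 1 without the 5 samples. The naive regions went from 0 to 1, and the regions over 13 groups from 3 to 5, with the next brightest probe set, and the naive regions to 1 without the 5 samples. The causes were not tested.

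The next brightest probe set turned the sign of Hbegf in raphe over the 6 times (-0.10) and at 4 h (-0.13) and in cortex at 7 d (0.14), of Ngfr in cortex at 7 d (-0.31) and of injured against naive cortex (0.22), and of Ntrk2 in cortex at 3 months (0.44) and between the regions (-1.13).

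Leaving out each sample in turn, counts ran from 0 to 4 for cortex at 14 d and for the cortex course of injured minus sham, both highest without sham cortex at 14 d, replicate 1, and from 0 to 2 for cortex at 3 months. They ran from 3 to 4 for the regions over 13 groups, and from 0 to 1 for cortex over the 6 times, cortex at 7 d, the naive regions, raphe at 4 h, raphe over the 6 times and both raphe time courses. In every other comparison they were 0. The Ngfr difference in cortex at 7 d ran from -8.8e-05 to 1.96. Where a group was left with 1 sample, its spread was taken from the other groups. Without raphe sham at 3 months, replicate 2, only Ntrk2 and Hbegf gave values.

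Same-numbered samples did not deviate together: correlations of deviations ran from -0.219 to 0.174, over 0.1 in 1 of 22 pairs of injured and sham, 3 of 28 pairs of raphe and cortex and 1 of 8 pairs of naive and injured. With the replicate block Hbegf in raphe at 4 h was 1.502 (limma adjusted p = 0.0646), and the count there was 0. The block moved no other count.

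Pairs of sham samples and signals near the negative controls, as for Gdnf, limit these comparisons. The arrays of conflicting labels bear on cortex at 24 h, where the count was 0 with and without them.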
